A study of Ovis aries with 32 samples.

Results

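KLF2, KLF4 and FOXO1 are transcription factors linked to a quiescent vessel wall, and they are 3 of the 2359 genes that could be named on this sheep array. They were chosen by name, with earlier results of these data known. Of 15008 probes 4 carried them: 1 for KLF2, 1 for FOXO1 and 2 for KLF4. The brighter KLF4 probe stands for the gene below, and the dimmer probe is described after it. All 4 probes got their names from the study's first supplementary table, by matching its group means to the arrays, at the ages where that table lists the gene as altered. A call at such an age is therefore not independent of the name. The ages that played no part in naming were the newborn and the adult for KLF2, the newborn for KLF4 and every age but the newborn for the dimmer KLF4 probe, while FOXO1 was matched at all 4 ages.

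The arrays measured RNA of ovine middle cerebral artery (MCA) segments without treatment or after 30 min in 10 µM phenylephrine (PHE), an agonist of alpha-1 adrenergic receptors, to ask how this stimulus changes gene expression at each stage of development. The 8 groups held 4 arrays each. They were untreated and PHE arteries of premature fetuses (96 d of gestation by the labels and by the methods), near-term fetuses (146 d by the labels, 140 d by the methods), newborn lambs (12 h by the labels, 5 d by the methods) and adult sheep (2 years by the labels, 18 to 24 months by the methods). The methods give 4 animals per experiment and cut the artery of each into segments, and the labels tie no array to an animal, so 1 animal may have given both an untreated and a PHE array, and p-values here measure the spread between these samples.

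A level below is the log2 of a probe's background-subtracted intensity relative to its array's 75th percentile of intensity, which stands at 0. That percentile ran from an intensity of 124 (near-term untreated replicate 4) to 1710 (adult untreated replicate 3), and between 59.6% and 95.7% of probes were well above background on an array, by the scanner software's mark. The number of arrays limits the precision. The arrays lay on 5 slides. All premature arrays lay on slide 5 and all newborn arrays on slide 4, so that age and slide cannot be told apart between those ages. Slide 1 held the 4 near-term PHE arrays and near-term untreated replicate 4, slide 2 held near-term untreated replicate 1 and adult untreated replicates 3 and 4, and slide 3 held near-term untreated replicates 2 and 3, adult untreated replicates 1 and 2 and the 4 adult PHE arrays. Slides 1 to 3 (near-term and adult) were scanned on day 1 and slides 4 and 5 (newborn and premature) on day 2. Orders of levels over all 8 groups therefore cross scan days, and the part of the scan day was not tested. Of 5 markers of smooth muscle only CNN1 (calponin) had a named probe, and it was well above background in all 8 groups, with mean intensities from 28.8 times the 75th percentile (premature PHE) to 439 times (adult PHE).

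KLF2 and KLF4 are zinc-finger factors that laminar flow induces in endothelium, where they raise genes against clotting and inflammation such as nitric oxide synthase and thrombomodulin, and where KLF4 also belongs to the early response of smooth muscle, in which it can repress contractile genes. FOXO1 is a forkhead factor that AKT phosphorylates and keeps out of the nucleus when growth factors act, and that otherwise restrains growth and metabolism of vessel cells and switches on genes of cell cycle arrest and stress defence. All 3 genes are also controlled at the level of their mRNA, which is what an array reads.

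KLF4, the factor with roles in both cell layers, was well above background on all 32 arrays. In premature arteries its level was 1.86, 0.53, 0.60 and 0.81 in untreated replicates 1 to 4 and 3.27, 3.21, 3.31 and 2.62 in PHE replicates 1 to 4. In near-term arteries the level was 0.15, -0.14, 0.21 and 0.68 untreated and 2.94, 2.60, 2.00 and 2.76 with PHE. All PHE arrays of both fetal ages stood above all untreated ones. Of the 4 untreated near-term arrays 3 lay below every untreated premature one, a comparison that crosses scan days. In newborn arteries the KLF4 level was 0.37, 0.20, 1.57 and 1.12 untreated and 2.80, 3.24, 2.92 and 3.43 with PHE. In adult arteries it was -1.84, -2.20, -1.54 and -2.49 untreated and 3.21, 1.26, 2.72 and 2.46 with PHE. The groups were separate at these ages too. The adult arrays without PHE were the lowest of all 32, while the adult PHE arrays, apart from a lower replicate 2, reached the levels of the younger PHE arrays.

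**Figure D1:**
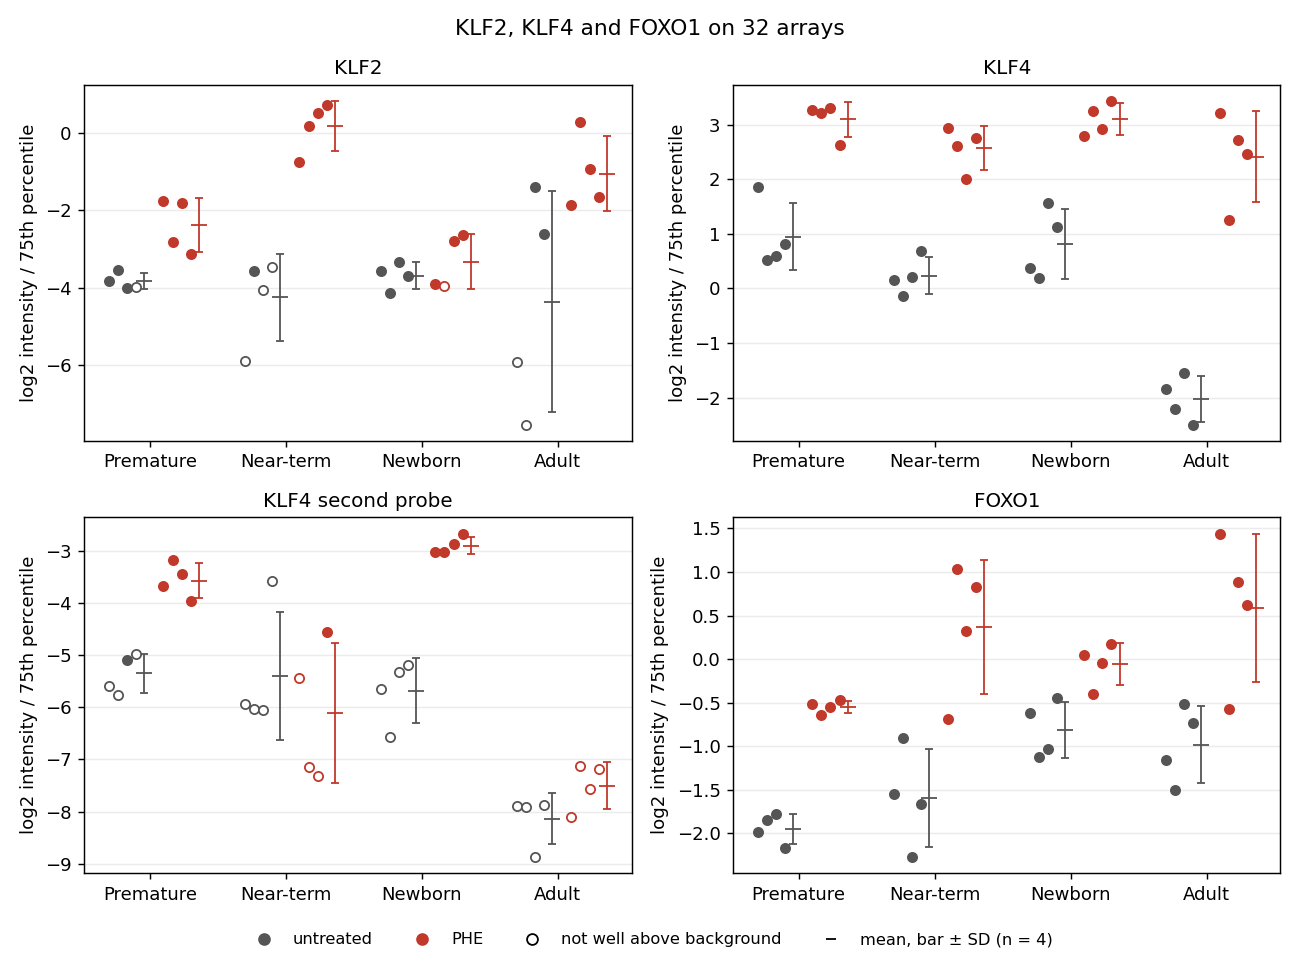
Level of each of the 4 probes (log2 of intensity over the array's 75th percentile) on each of the 32 arrays by age and treatment, with open symbols for values not well above background and a dash with a bar for each group's mean and SD (n = 4). KLF4 separates untreated from PHE arrays at every age, while KLF2 in untreated adult arteries splits into a pair near -2.00 and a lower pair not well above background.

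By limma, KLF4 rose with PHE at every age, with a log2 difference of 2.16 (standard error 0.35, 4.45-fold, adjusted p 5.4e-05) in premature arteries. The rise was 2.35 (5.08-fold, adjusted p 1.72e-05) in near-term, 2.28 (4.87-fold, adjusted p 4.46e-05) in newborn and 4.43 (21.5-fold, adjusted p 3.85e-10) in adult arteries. The direction was the same in 4 of 4 PHE arrays against every untreated array of the age. With slide as a block the near-term rise was 1.90 and the adult rise 4.45. Within the slide that held both groups of an age it was 1.90 in near-term arteries, against 1 untreated array, and 4.43 in adult arteries, against 2. That single near-term array, replicate 4, had the lowest 75th percentile of all, and every near-term PHE difference with slide as a block or within slide 1 takes its untreated side from it alone. It was assumed to vary like the arrays of the other groups, which was not tested, so calls and p-values under those alternatives hold only if it did. The ranges over alternatives include them. Over the alternatives that kept all arrays of an age or all arrays of its slide, adjusted p ran from 1.68e-05 to 0.0121 (premature), 6.78e-06 to 0.0657 (near-term), 2.8e-05 to 0.0261 (newborn) and 2.66e-10 to 0.0922 (adult). The rise itself ran from 2.03 to 2.28, 1.90 to 2.41, 2.21 to 2.31 and 3.96 to 4.45.

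The adult rise of KLF4 was set against the others by interaction contrasts. It exceeded the premature rise by 2.27 (standard error 0.50, adjusted p 0.0186, range over alternatives 0.0129 to 0.0797). That call was lost without premature untreated replicate 1 (1.97, adjusted p 0.0569) and without adult untreated replicate 4 (2.11, adjusted p 0.0506), and adjusted p over all arrays left out in turn ran from 0.00284 to 0.0569. It was lost too with normexp background correction (1.78) and with quantile normalization (1.68). The adult rise exceeded the near-term rise by 2.08 (adjusted p 0.00971, 0.00689 to 0.115 over alternatives), and by 2.55 with slide as a block. A fit to only the arrays compared gave the same 2.08 without a call. The adult rise exceeded the newborn one by 2.14, which missed the threshold (adjusted p 0.0918) and passed it without adult PHE replicate 2 (2.53, adjusted p 0.0107, range over arrays left out 0.0107 to 0.227). The 4 adult PHE levels overlapped the PHE levels of every younger age, whereas the 4 untreated adult levels lay below every other untreated array. Between the 3 younger ages the rises differed by 0.19 (near-term minus premature), 0.13 (newborn minus premature) and -0.06 (newborn minus near-term), none called.

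The order of mean KLF4 levels was premature PHE (3.1, SD 0.32), newborn PHE (3.1, SD 0.29), near-term PHE (2.57, SD 0.41), adult PHE (2.41, SD 0.83), premature untreated (0.95, SD 0.62), newborn untreated (0.82, SD 0.64), near-term untreated (0.23, SD 0.34) and adult untreated (-2.02, SD 0.42), with n = 4 for each. Premature and newborn PHE, near-term and adult PHE, and premature and newborn untreated arteries did not differ from their neighbour in this order by more than the pooled SD. The widest step between neighbours was the last, from near-term to adult untreated arteries.

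The dimmer KLF4 probe was well above background on 10 of 32 arrays. In premature arteries its level was -5.59, -5.76, -5.09 and -4.97 untreated, of which only replicate 3 was well above background, and -3.67, -3.17, -3.45 and -3.97 with PHE, all well above it. In newborn arteries the probe read -5.64, -6.56, -5.33 and -5.19 untreated, none well above background, and -3.03, -3.03, -2.87 and -2.67 with PHE, all well above it. The PHE arrays of these ages stood above all untreated ones, as they did for the brighter probe. In near-term arteries the dimmer probe gave a signal only in PHE replicate 4 (-4.55), the other arrays lying between -7.31 and -3.57, and in adult arteries on no array (-8.87 to -7.13). No fold is given for those ages, and the probe was not tested there. It rose with PHE by 1.79 in premature arteries (adjusted p 0.0115, 4 of 4 arrays), which was at least 2.74-fold, with 1 of 4 untreated arrays well above background. In newborn arteries the rise was at least 3.67-fold (adjusted p 0.000286, 4 of 4 arrays). For such a bound each untreated value not well above background was raised, where lower, to the dimmest signal that its array still held well above background. With normexp background correction neither rise was called, at 0.08 (adjusted p 0.934, lowest over alternatives 0.000234) in premature and 1.20 (adjusted p 0.195, lowest 5.14e-06) in newborn arteries.

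KLF2, the flow-induced factor of endothelium, was well above background on 25 of 32 arrays. In premature arteries its level was -3.84, -3.55, -4.01 and -3.98 untreated (replicate 4 not well above background) and -1.77, -2.81, -1.82 and -3.13 with PHE. In near-term arteries it was -5.90, -3.58, -4.06 and -3.46 untreated, with only replicate 2 well above background, and -0.74, 0.19, 0.53 and 0.73 with PHE. At both fetal ages every PHE array was above every untreated one, by a narrow gap in premature and a wide gap in near-term arteries. In newborn arteries the KLF2 level was -3.56, -4.15, -3.34 and -3.70 untreated and -3.91, -3.97, -2.79 and -2.64 with PHE (replicate 2 not well above background). Newborn PHE and untreated arrays overlapped, with PHE replicates 3 and 4 above all untreated ones and replicates 1 and 2 among them.

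In adult arteries KLF2 levels without treatment went with the slide. They were -5.92 and -7.55 in replicates 1 and 2 on slide 3, neither well above background, and -1.39 and -2.61 in replicates 3 and 4 on slide 2. The PHE arrays, all on slide 3, had levels of -1.87, 0.29, -0.94 and -1.66. The untreated pair of slide 2 lay at the PHE levels or just under them, and the pair of slide 3 far below. With the slide 3 values raised to the dimmest signal that each array held well above background, the mean of slide 2 (-2.00) exceeded that of slide 3 by at least 3.67. As large a difference was found for 4 of the 9582 probes tested in adult arteries, KLF2 among them, when all were treated so. The difference was 0.71 for FOXO1 and 0.01 for KLF4. What set these pairs of arrays apart was not tested.

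**Figure D2:**
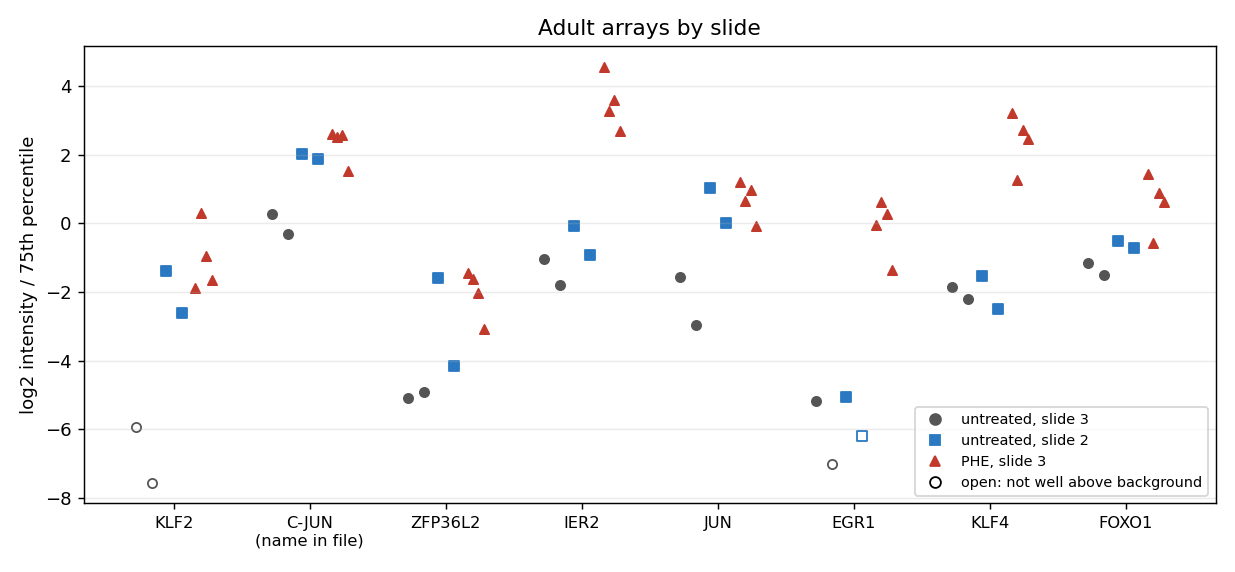
Levels (log2 of intensity over the array's 75th percentile) of KLF2, KLF4, FOXO1 and the 5 probes most like KLF2 on the 8 adult arrays, by slide and treatment, with open symbols for values not well above background. KLF2 is at least 3.67 higher in untreated arteries of slide 2 than of slide 3, where it is not well above background, and KLF4 0.01 higher.

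By limma, KLF2 rose with PHE in near-term arteries by 4.43 (standard error 0.82, adjusted p 0.000152), with 1 of 4 untreated and 4 of 4 PHE arrays well above background. That is 21.5-fold by the means and at least 14.3-fold with the 3 other untreated values raised, where lower, to the dimmest signal resolved on their arrays. All 4 PHE arrays shared the direction. Within slide 1 the rise was at least 8.2-fold, against the single untreated array, which was not well above background, and with slide as a block it rests on that array too. It was smallest with normexp correction (1.48) and largest with quantile normalization (5.54), and adjusted p over the alternatives ran from 1.6e-06 to 0.117. In adult arteries KLF2 rose by 3.32 (standard error 0.81, adjusted p 0.0126), 9.99-fold with 2 of 4 untreated arrays well above background and at least 6.89-fold with the other 2 raised likewise. Only 2 of 4 PHE arrays were above all untreated ones. Within slide 3 the adult rise was at least 24.6-fold (5.69, adjusted p 5.34e-07), and with slide as a block it was 4.33 (adjusted p 0.0025). The fit within slide 3, added after seeing the data, left out untreated replicates 3 and 4 of slide 2 (-1.39 and -2.61). Its 2 untreated arrays were not well above background, and the difference between the slides is not part of its spread. The adult call was lost without untreated replicate 1 (2.80, adjusted p 0.0719) and without untreated replicate 2 (2.26, adjusted p 0.0842), both on slide 3, and adjusted p over the arrays left out in turn ran from 0.000296 to 0.0842. It was lost too with normexp correction (1.72) and in a fit to only the arrays compared. Over these other alternatives adjusted p ran from 5.34e-07, within slide 3, to 0.532.

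KLF2 was not called in premature arteries (1.46, adjusted p 0.23), although 4 of 4 PHE arrays exceeded every untreated one. The limma fit shares its estimate of a probe's spread over all 8 groups. The SD of KLF2 was 0.21 in untreated and 0.69 in PHE premature arteries, but 2.86 in untreated adult arteries. The premature p-value thus reflects spread at other ages too. A fit to only the premature arrays called KLF2 at an adjusted p of 0.00389, whereas with normexp correction the difference shrank to 0.09 (adjusted p 0.931), these being the ends of the range over alternatives. It was not called in newborn arteries either (0.36, 95% interval -1.32 to 2.04, adjusted p 0.863, 2 of 4 PHE arrays above all untreated ones). The newborn response of KLF2 was lower than the near-term one by interaction (-4.07, standard error 1.16, adjusted p 0.0228, range over alternatives 0.00136 to 0.32), with all 4 near-term PHE arrays above all newborn PHE arrays. Only 1 of 4 near-term untreated arrays was well above background, and with values raised as above the difference was -3.47, which was not tested. It was -3.27 without a call with slide as a block and -1.03 without a call with normexp correction. The near-term response exceeded the premature one by 2.97, not called (adjusted p 0.127), by 4.17 with a call after quantile normalization (adjusted p 0.012, in a range over alternatives of 0.012 to 0.307), by 2.37 with values so raised, and by 1.39 without a call with normexp correction. The adult response exceeded the newborn one by 2.96 (adjusted p 0.598) and the premature one by 1.86 (adjusted p 0.604), and was 1.11 below the near-term one (-1.11, adjusted p 0.572), none of them called.

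The order of mean KLF2 levels was near-term PHE (0.18, SD 0.65), adult PHE (-1.05, SD 0.98), premature PHE (-2.38, SD 0.69), newborn PHE (-3.33, SD 0.71), newborn untreated (-3.69, SD 0.34), premature untreated (-3.84, SD 0.21), near-term untreated (-4.25, SD 1.13) and adult untreated (-4.37, SD 2.86), with n = 4 for each. From the newborn PHE group downward no group differed from the next by more than the pooled SD. Most near-term untreated values and the lower adult pair were not well above background, so these groups were in part not resolved from background. The adult untreated mean stood near none of its arrays, which lay at -1.39 and -2.61 on slide 2 and at -5.92 and -7.55 on slide 3. The slide 2 pair was above every untreated array of the other ages, so the last place of this mean does not describe it.

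FOXO1, the forkhead factor, was well above background on all 32 arrays. In premature arteries its level was -1.98, -1.85, -1.78 and -2.17 untreated and -0.52, -0.64, -0.55 and -0.47 with PHE. In near-term arteries it was -1.55, -0.90, -2.27 and -1.66 untreated and -0.69, 1.03, 0.32 and 0.83 with PHE. The premature groups were tight and far apart, while near-term PHE replicate 1 stood below the other near-term PHE arrays and just above untreated replicate 2. In newborn arteries the FOXO1 level was -0.62, -1.12, -1.03 and -0.45 untreated and 0.05, -0.40, -0.05 and 0.17 with PHE. In adult arteries it was -1.16, -1.50, -0.51 and -0.73 untreated and 1.44, -0.57, 0.89 and 0.62 with PHE. The newborn groups were separate by only 0.05, and adult PHE replicate 2 fell among the untreated adult arrays.

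By limma, FOXO1 rose with PHE by 1.40 in premature arteries (standard error 0.35, 2.64-fold, adjusted p 0.00431, 4 of 4 arrays above all untreated ones). With normexp correction this call was lost (0.85, adjusted p 0.075, the top of a range from 1.64e-05). The rise was 1.96 in near-term arteries (3.9-fold, adjusted p 9.19e-05, 4 of 4 arrays). It was 2.03 with slide as a block and within slide 1, both against the single untreated array of that slide, and 1.13 with normexp correction, which kept the call. Adjusted p over the alternatives ran from 3.97e-05 to 0.151. In adult arteries the rise was 1.57 (2.97-fold, adjusted p 0.00448, 3 of 4 arrays above all untreated ones), with 1.79 under the slide block (adjusted p 0.00734) and 1.92 within slide 3 (adjusted p 0.00671). The adult call was lost in a fit to only the adult arrays (adjusted p 0.114), in a range of 0.00149 to 0.393. In newborn arteries FOXO1 was not called (0.75, 1.68-fold, 95% interval 0.04 to 1.46, adjusted p 0.17), with 4 of 4 PHE arrays above all untreated ones. Arrays of the same replicate number differed there by 0.67, 0.72, 0.98 and 0.62, and with that number as a block FOXO1 was not called either (adjusted p 0.0726). A fit to only the newborn arrays called it at an adjusted p of 0.0167, in a range of 0.0167 to 0.273.

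No interaction of FOXO1 was called. The farthest apart were the newborn and near-term responses, with newborn minus near-term at -1.22 (adjusted p 0.102). This difference was called with the replicate number as a block (adjusted p 0.0446 for the same -1.22), without near-term untreated replicate 2 (-1.45, adjusted p 0.0411) and without near-term PHE replicate 1 (-1.57, adjusted p 0.0132). With normexp correction it shrank to -0.50 (adjusted p 0.402). Adjusted p ran from 0.0446 to 0.402 over the alternatives with all arrays and from 0.0132 to 0.223 over arrays left out. The other FOXO1 interactions were 0.56 (near-term minus premature), -0.65 (newborn minus premature), 0.17 (adult minus premature), -0.39 (adult minus near-term) and 0.82 (adult minus newborn).

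The order of mean FOXO1 levels was adult PHE (0.59, SD 0.85), near-term PHE (0.37, SD 0.77), newborn PHE (-0.06, SD 0.24), premature PHE (-0.55, SD 0.07), newborn untreated (-0.81, SD 0.32), adult untreated (-0.98, SD 0.44), near-term untreated (-1.59, SD 0.56) and premature untreated (-1.95, SD 0.17), with n = 4 for each. Adult and near-term PHE, near-term and newborn PHE, newborn and adult untreated, and near-term and premature untreated arteries did not differ by more than the pooled SD. Newborn PHE and premature PHE arrays did not overlap.

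**Figure D3:**
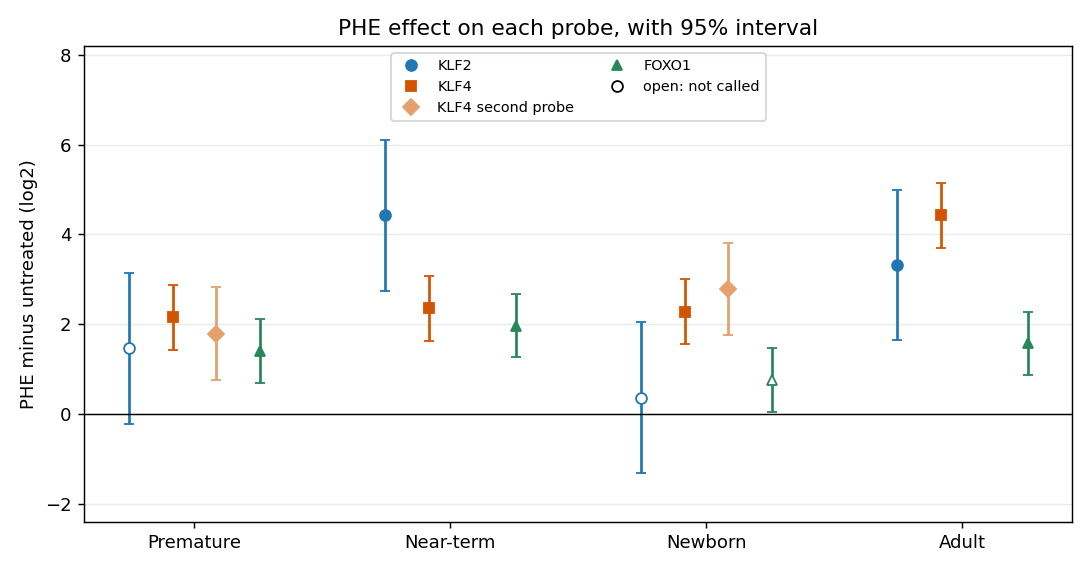
PHE minus untreated log2 difference of each probe at each age by limma, with its 95% interval, with filled symbols where called and open ones where not. KLF4 is called at all 4 ages and is farthest from 0 in adult arteries (4.43), while KLF2 runs from 0.36 in newborn to 4.43 in near-term arteries.

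A gene was called at an adjusted p under 0.05 and at least 1.5-fold. By that rule 2 of the 3 genes rose with PHE in premature arteries (KLF4 and FOXO1), where 9.45% of all probes tested did. In near-term arteries 3 of 3 rose, against 17.9% of probes, in newborn arteries 1 of 3 (KLF4), against 6.22%, and in adult arteries 3 of 3, against 3.19%. The differences not called by limma were those of KLF2 in premature and newborn and of FOXO1 in newborn arteries. No mean difference of the 3 genes was under 0, with KLF4 read from its brighter probe. The dimmer KLF4 probe had near-term means of -5.40 untreated and -6.11 with PHE, with only PHE replicate 4 well above background. Since names came from a table of altered genes, named probes were called more often than others. In either direction these were 54.9% of table-named against 10.2% of unnamed probes in premature, 71.3% against 29.3% in near-term, 38.2% against 5.9% in newborn and 17.4% against 1.29% in adult arteries. Of table-named probes 561 of 1758, 684 of 1679, 389 of 1706 and 219 of 1614 rose at these ages. The rises at ages that played no part in naming were those of KLF4 in newborn, of KLF2 in adult and of the dimmer KLF4 probe in premature arteries.

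For the differences between ages, limma called 0 of 3 genes for near-term minus premature (5.07% of probes called, 1 gene, KLF2, at an unadjusted p under 0.05) and 0 of 3 for newborn minus premature (0.0194% of probes, 0 genes at an unadjusted p under 0.05). It called 1 of 3 for adult minus premature (KLF4, 1.08% of probes), 1 of 3 for newborn minus near-term (KLF2, 12.3% of probes) and 1 of 3 for adult minus near-term (KLF4, 12.3% of probes). For adult minus newborn it called 0 of 3 (0.0961% of probes), with 2 genes, KLF2 and KLF4, at an unadjusted p under 0.05. Of effects called at one age and not at another, only that of KLF2 between newborn and near-term arteries was thus called different. This difference was called neither with normexp correction (-1.03) nor with slide as a block (-3.27, with the single near-term untreated array of slide 1). The near-term age had a part in naming the KLF2 probe, so this call is not independent of the name. The same holds for the KLF4 calls, since premature, near-term and adult arteries all had a part in naming KLF4.

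Levels without PHE were compared between the ages scanned on the same day. Between newborn and premature arteries, which differ in slide, limma called 1 of 3 genes (12% of probes). FOXO1 was higher in newborn arteries by 1.14 (2.2-fold, adjusted p 0.0277, 4 of 4 newborn arrays above all premature ones). This call was lost without newborn untreated replicate 1 (1.08, adjusted p 0.0669) or 4 (1.02, adjusted p 0.0983) and without premature untreated replicate 1 (1.13, adjusted p 0.0613) or 4 (1.06, adjusted p 0.0803). Adjusted p ran from 0.0322 to 0.0983 over arrays left out and from 0.00145 to 0.249 over the other alternatives, the highest with normexp correction (0.61). The difference was -0.13 for KLF4 and 0.15 for KLF2, neither called. Between adult and near-term arteries 1 of 2 genes tested was called, against 44.4% of probes. KLF4 was lower in adults by -2.24 (adjusted p 9.93e-06, 4 of 4 adult arrays below all near-term ones), with -2.10 under the slide block, -2.06 on slide 3 (adjusted p 0.00351) and -2.16 on slide 2, where a single near-term array was compared with 2 adult ones. FOXO1 differed by 0.62, not called (adjusted p 0.139), and was called with scaling to the median (1.16, adjusted p 0.00614, in a range of 0.00614 to 0.729), where the median of all probes moved from -0.01 to 0.53. KLF2 was not tested in that comparison, having 1 of 4 near-term and 2 of 4 adult untreated arrays well above background.

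Over the 32 arrays, pooled over ages and treatments, the levels of the genes themselves had a Pearson r of 0.65 for FOXO1 and KLF2, 0.54 for FOXO1 and KLF4 and 0.51 for KLF2 and KLF4. The dimmer KLF4 probe, well above background on 10 arrays, had an r of -0.09 with FOXO1, -0.07 with KLF2 and 0.59 with the brighter KLF4 probe. Among 2445 named probes, those with the levels most like KLF4 were TRIB1 (r 0.96), MYC (0.94), EPHA1 (0.93), ICAM1 (0.92) and MCTP1 (0.92). Most like KLF2 were ZFP36L2 (0.85), JUN (0.84), EGR1 (0.84), IER2 (0.84) and a probe the files name C-JUN (0.81). Most like FOXO1 were CEBPB (0.91), TAP2 (0.90), ATF3 (0.89), IER5 (0.89) and BAG3 (0.89). No gene name was among the 5 of more than 1 factor.

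The slide split of KLF2 in untreated adult arteries was looked for in the 5 probes most like it, which were chosen over all 32 arrays, these included, so the split itself had a part in the choice. JUN and C-JUN name 1 gene. JUN had levels of -1.55 and -2.97 on slide 3, 1.04 and 0.02 on slide 2 and 1.21, 0.65, 0.97 and -0.09 with PHE. ZFP36L2 had -5.09 and -4.90 on slide 3, -1.58 and -4.14 on slide 2 and -1.44, -1.61, -2.04 and -3.07 with PHE. EGR1 had -5.17 and -7.00 on slide 3, -5.07 and -6.19 on slide 2 and -0.04, 0.61, 0.27 and -1.37 with PHE. Both untreated slide 2 arrays of JUN lay at or near the PHE levels, as for KLF2, but only replicate 3 did so for ZFP36L2 and neither for EGR1. For IER2 and C-JUN the slide 2 pair lay above the slide 3 pair, for C-JUN above the lowest PHE array and for IER2 below all PHE arrays.

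The genes around the 3 factors were read from lists of their family, their upstream pathway and their known targets. Few of these had a named probe, so a list's count and median describe only the genes named. Beside each count of rises stand the 9.45, 17.9, 6.22 and 3.19% of all probes that rose in premature, near-term, newborn and adult arteries, and the higher shares called among table-named probes, 54.9, 71.3, 38.2 and 17.4% in either direction. Beside each count of falls stand the 903 of 10161, 1859 of 9919, 556 of 9796 and 98 of 9582 probes that fell at these ages. Whether a list departs from these shares was not tested. Of 15 other KLF genes 3 had one (KLF9, KLF10 and KLF13), and they had median PHE differences of 2.04, 3.35, 0.66 and -0.12 in premature, near-term, newborn and adult arteries, against medians of -0.09, -0.08, -0.08 and -0.04 for all probes. With values not well above background raised the near-term median was 1.84. KLF10, a growth-restraining early response factor, rose at all 4 ages, by 3.56, 3.16 and 3.75 in premature, newborn and adult arteries and at least 38.9-fold in near-term arteries, with 1 of 4 untreated arrays well above background there. KLF9 rose in premature arteries (2.04), and by interaction its response there differed only from the near-term one (near-term minus premature -2.45). With normexp correction it was not called there (0.30) and was lower in near-term arteries (-1.29). KLF13 rose in near-term arteries (at least 3.57-fold, with 1 of 4 untreated arrays well above background, or 3.35 by the means), but stood at -0.02 with normexp correction, which moved the median of all probes there to -0.42. Of 11 genes upstream of KLF2 and KLF4 only HDAC7, a deacetylase that holds MEF2 factors in check, was named. It rose 2.83-fold in near-term arteries and was not called by limma elsewhere (-0.33, -0.57 and -0.48 in premature, newborn and adult arteries, the newborn value alone at an unadjusted p under 0.05).

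Of 8 genes that KLF2 or KLF4 raise in endothelium 5 were named, and 1 of 5 tested rose in premature, 2 of 5 in near-term, 2 of 5 in newborn and 2 of 3 in adult arteries, with none falling by limma at this scaling. Their medians were 0.28, 1.27, 0.43 and 2.70, the newborn one at -0.07 with values not well above background raised. CDKN1A, a cell cycle inhibitor, rose at all ages (6.29, 6.11, 5.07 and 4.79). THBD (thrombomodulin) was not called in premature arteries (0.28) and rose by 1.27, 1.32 and 2.70 at the later ages, though with scaling to the median its newborn difference was not called (1.30). With normexp correction NPPC (-1.94) and ASS1 (-1.68) fell in near-term arteries. Of 9 genes that they repress 5 were named, with 3 of 4 tested higher in premature, 3 of 4 in near-term, 3 of 4 in newborn and 3 of 3 in adult arteries, none lower by limma at this scaling, and SELE not tested at any age. Their medians were 7.11, 5.01, 6.91 and 5.77. CCL2, a chemokine, rose by 5.69, 3.07, 5.20 and 3.49 and CXCL8, another, by 8.53, 6.96, 8.63 and 5.77 (2 of 4 untreated adult arrays well above background, at least 40.5-fold). IL6 rose at least 1120-fold in premature, at least 362-fold in newborn and at least 140-fold in adult arteries, with no untreated array well above background, and at least 85.6-fold in near-term arteries, with 1 of 4. With all values not well above background raised for such bounds the medians were 7.11, 4.75, 6.85 and 5.34. With normexp correction EDN1 (endothelin) fell in near-term arteries (-0.96).

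Of 14 genes of the FOXO family and the PI3K-AKT pathway 3 were named. In premature, near-term, newborn and adult arteries 2, 3, 2 and 3 of them were tested. Of those tested 0, 0, 1 and 1 rose and 0 fell by limma, where 1, 0, 1 and 2 had an unadjusted p under 0.05. SGK1, a kinase that like AKT acts on FOXO proteins, had differences of 2.45, 1.86, 3.29 and 4.12, called in newborn and adult arteries, where 3 of 4 and 1 of 4 untreated arrays were well above background and the adult rise was at least 9.78-fold. In near-term arteries 2 of 4 untreated arrays were well above background, and with the other values raised the difference was 1.38. The adult call was lost with normexp correction (1.89) and quantile normalization (3.59), and the latter called SGK1 in near-term arteries (2.86). INSR was lower in near-term arteries only with normexp correction (-1.42). Of 16 targets of FOXO factors 8 were named, of which 3, 4, 3 and 1 rose and 1, 2, 2 and 1 fell, with medians of 0.61, 0.74, 0.85 and 0.10. With normexp correction 2, 2, 1 and 1 rose and 1, 3, 3 and 1 fell. In newborn arteries 1 rose and 3 fell with quantile normalization too, and 2 rose and 2 fell with scaling to the median. GADD45A, a stress and arrest gene, rose at all ages (2.09, 3.08, 3.46 and 5.33), and TXNIP, a metabolic brake, fell at all ages (-1.76, -1.70, -1.85 and -1.05), the adult fall not being called with scaling to the median (-1.13). PDK4, which restrains glucose oxidation, rose in premature (2.12) and near-term arteries (1.92), without a call at either age with normexp correction (0.93 and 0.89). CITED2, a co-regulator of transcription, rose in near-term (1.67) and fell in newborn arteries (-1.58). Of 10 contractile genes, which KLF4 can repress in smooth muscle, only CNN1 was named, with differences of -0.27, -0.69, -0.21 and 0.12 and 0 calls by limma, of which only the near-term difference had an unadjusted p under 0.05.

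**Figure D4:**
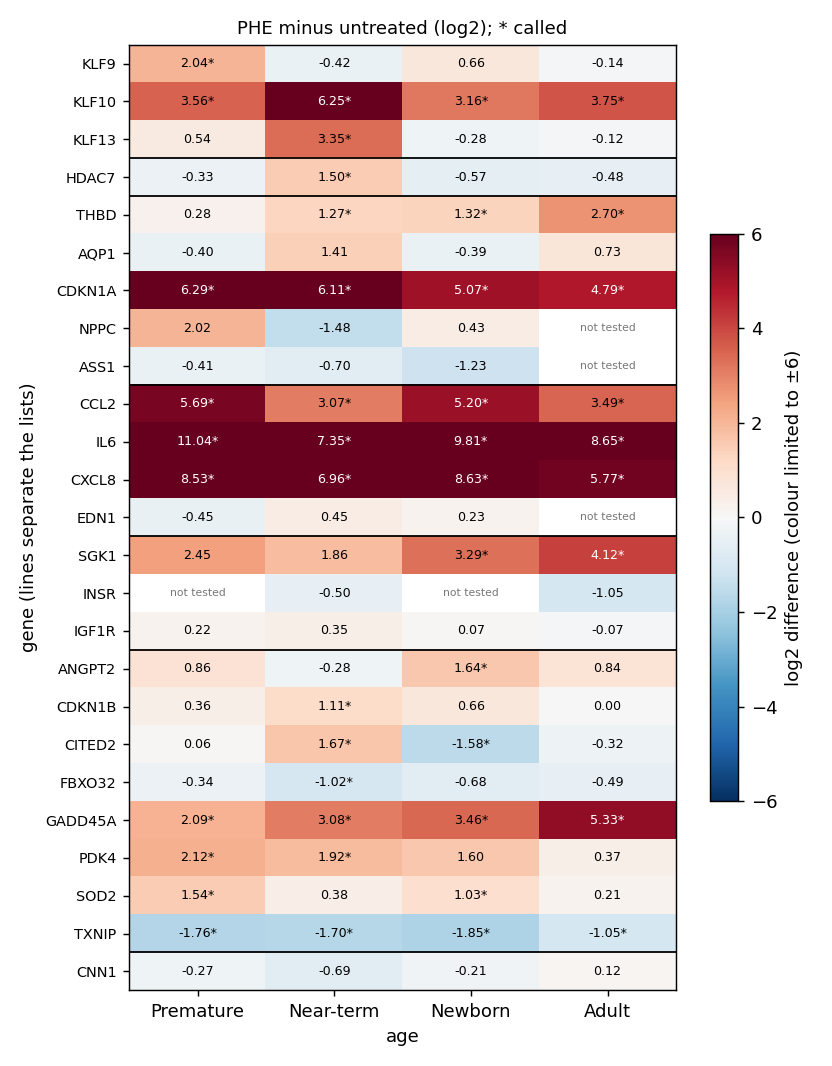
PHE minus untreated log2 difference by limma of the named genes of the factors' families, pathways and targets (rows) at each age (columns), on a colour scale centred at 0, with an asterisk where called. CDKN1A, KLF10 and GADD45A are called higher at all 4 ages and TXNIP lower, at scaling to the 75th percentile.

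A level in such tissue RNA does not separate fewer cells of a type from less RNA per cell. Among 8 markers of endothelium TIE1 and ENG were named. By the means KLF2 rose most in near-term arteries. With normexp correction, with slide as a block or within a slide its adult rise was larger. The summed intensity of TIE1 and ENG, over the 75th percentile, was 0.129, 0.224, 0.0829 and 0.207 in untreated near-term arteries. With PHE it was 0.405, 0.545, 0.797 and 0.523 in near-term arteries, with all PHE arrays above all untreated ones. ENG (1.73) and TIE1 (2.34, at least 2.03-fold, with 1 of 4 untreated arrays well above background) were called there with scaling to the 75th percentile and were not higher with normexp correction (-0.04 and -0.79). In the other groups the mean sum lay between 0.128 and 0.184. In adult arteries it was 0.157, 0.141, 0.34 and 0.0985 untreated and 0.174, 0.0994, 0.156 and 0.126 with PHE, so the adult arrays with high KLF2 and no PHE, replicates 3 and 4, held both the highest and the lowest value. Of 3 pericyte markers PDGFRB was named, at 0.137, 0.156, 0.225 and 0.188 untreated and 0.432, 0.683, 0.958 and 0.865 with PHE in near-term arteries (2.02, called, but 0.70 and not called with normexp correction). In untreated adult arteries PDGFRB was 0.195 and 0.177 on slide 3 and 1.21 and 0.595 on slide 2, and 0.187, 0.168, 0.22 and 0.181 with PHE. The smooth muscle marker was 518 and 521 on slide 3 and 216 and 436 on slide 2, and the sum of the fat markers 0.206 and 0.0987 on slide 3 and 1.51 and 0.211 on slide 2. The sums of the other 5 kinds of marker overlapped between these slides. Of 4 fibroblast markers COL1A1 and DCN were named, and COL1A1 rose in near-term arteries (4.22). DCN was not called at any age, with differences of -0.47, -0.32, 0.77 and -0.14 in premature, near-term, newborn and adult arteries. Of 4 markers of red cells HBA1 and HBB were named, and HBA1 fell in premature (-1.96) and near-term arteries (-2.38). COL1A1 was also called in premature arteries with normexp correction (1.56), and HBA1 in newborn arteries with quantile normalization (-1.09). Of the named markers of leukocytes (3 of 6), brain (2 of 4) and fat (2 of 4) not all were tested. At each age 2 leukocyte markers were tested, and 1 fat marker at each age but the premature. For brain 2 markers were tested in fetal and 1 in newborn and adult arteries. Of those tested limma called 0 for PHE at any age with scaling to the 75th percentile, and 1 leukocyte marker in adult and 1 brain marker in premature arteries had an unadjusted p under 0.05. The leukocyte sum in premature arteries was 1.7 to 2.04 untreated and 2.66 to 4.99 with PHE, and the brain sum 0.184 to 0.315 and 0.0966 to 0.155. Both sums overlapped at the other ages. With normexp correction ITGB2 (-1.30), GFAP (-1.44), MBP (-1.92) and FABP4 (-1.72) were called lower in near-term arteries, FABP4 with quantile normalization too (-1.90). The part of these markers in the levels of KLF2, KLF4 and FOXO1 was not tested.

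Markers also differed between untreated arteries of different ages, in the comparisons where KLF4 and FOXO1 were called. In adult against near-term arteries CD14 (-2.41) and ITGB2 (-3.24) of leukocytes and COL1A1 (-2.17) were lower at every scaling, as was HBB, by at least 42-fold with no adult array well above background. HBA1, DCN (-1.67), GFAP (-1.28) and MBP (-2.58) were called lower and PDGFRB higher (1.20), each without a call at 1 or more of the other scalings. CNN1 was not called (0.72) but was higher at the 3 other scalings. ENG, also not called (0.30), was lower with normexp correction (-1.20) and higher with quantile normalization (1.24) and scaling to the median (0.84). In newborn against premature arteries CNN1 (1.85) and FABP4 of fat (at least 25.8-fold, with 1 of 4 premature arrays well above background) were higher and HBB (-2.54) lower at every scaling. PDGFRB was called higher there (1.60) and DCN (-1.62) and GFAP (-0.96) lower, each without a call with normexp correction. GFAP was not called with quantile normalization or scaling to the median either. Whether these differences bear on those of KLF4 and FOXO1 was not tested.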

How the data were processed

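RNA of 32 MCA samples was hybridized to Agilent sheep arrays, 1 sample to an array. The deposited intensities were made by the authors with version 9.5.3.1 of Agilent Feature Extraction, as stated in the file headers, which subtracted background within each array, and they carry no scaling between arrays. Outlier spots were set to missing and repeated spots averaged, which left 15008 probes. Each array was then scaled to its 75th percentile, on the log2 scale. With limma 3.58.1 (R 4.3.3), 8 group means were fitted and contrasts tested two-sided, with Benjamini-Hochberg adjustment over all probes tested, calls at an adjusted p under 0.05 and at least 1.5-fold. To be tested, a probe had to be well above background on every array of 1 or more groups in the contrast. Tables and figures used Python 3.11.15 with numpy 2.4.6, pandas 2.3.3 and matplotlib 3.10.9. The fit was tested on simulated data.

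Names came from the accession (543 probes), from the study's first supplementary table (1799) or from the files (665), and 12001 probes had none. A table gene was matched where its group means met those of a single probe within 0.1% (0.3% for the premature fetus). Of the genes listed, 1092 of 1269 matched in premature, 1019 of 1106 in near-term, 966 of 1016 in newborn and 402 of 438 in adult arteries, and with shifted values 86, 6, 3 and 0 did. Table names equalled accession names for 53 of 60 probes holding both and file names for 89 of 145, and accession names equalled file names for 289 of 467. The table's near-term means matched without PHE replicate 1, which is kept here.

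The members, lists and tests were chosen with earlier results of these data known. From each list at most 4 genes are named, those altered at the most ages or most strongly, and from the marker lists those called. From each of 2 lists 1 gene is not used here. Genes named only where another scaling changed their call were chosen after their values were seen. Alternatives were normalization by quantiles or to the median, normexp correction of background (offset 50), no filter on dim probes, a filter on all groups compared, a fit to only the arrays compared, the replicate number or the slide as a block, the deposited matrix, no fold threshold, the methods' t-test, and leaving out each array in turn. Values within 1 slide were added after seeing the data.

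Whether equal replicate numbers pair arrays was checked by correlating, over probes, each untreated array's deviation from its group mean with that of the PHE array of the same number. Pearson r was 0.37, 0.50, 0.35 and 0.54 in premature and 0.49, 0.59, 0.51 and 0.56 in newborn arteries for replicates 1 to 4, but 0.04, 0.20, -0.20 and 0.33 in near-term and -0.09, 0.04, -0.04 and 0.00 in adult arteries. Arrays of equal number thus went together in premature and newborn arteries only. The fit used no pairs, and the replicate block changed a call of the 3 genes only for FOXO1 newborn minus near-term (-1.22). It could not be run between untreated arteries of different ages.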

Additional observations from a re-analysis of the deposited data

Results flagged for a closer look

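In 3 of 32 sets of 4 values (4 probes in 8 groups, which share their arrays), a single array stood far from the other 3 of its group, by a gap that took up most of the range of the 4. The cutoff for the gap (Dixon's 95% value) is one that chance alone passes in about 1 in 20 such sets. The KLF4 level of premature PHE replicate 4 (2.62) lay under those of the other 3 premature PHE arrays (3.21 to 3.31). The dimmer KLF4 probe read -3.57 on near-term untreated replicate 4, against -6.05 to -5.94 on the other 3, and this array had the lowest 75th percentile of intensity of all (124). The dimmer probe read -8.87 on adult untreated replicate 3, against -7.91 to -7.87. In both of these groups the dimmer probe was well above background on no array, so these values are not resolved levels.

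The effect of PHE differed between ages by limma in 3 interaction contrasts. The adult rise of KLF4 exceeded the premature one by 2.27 and the near-term one by 2.08, and the newborn response of KLF2 differed from the near-term one by -4.07, or by -3.47 with values not well above background raised to the dimmest signal resolved on their array, since 1 of 4 near-term untreated arrays was well above background. Each of these contrasts takes in an age that had a part in naming its probe. The alternatives under which each lost its call are given with the processing choices.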

How the results depend on the processing

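Signal over background limits KLF2 and the dimmer KLF4 probe most, which were well above background on 25 and 10 of 32 arrays. For the effects of PHE, 150 of 168 values kept their direction and their side of the threshold under the alternatives with no single array left out, as did 110 of 112 with 1 array left out. For the differences between ages these counts were 167 of 183 and 287 of 304, and for untreated arteries 41 of 45 and 33 of 40. The counts with no array left out include the deposited matrix, which held the intensities used here on all 32 arrays, outlier spots kept. They also include the main fit read without a fold threshold, which can reverse no direction and lose no call. Agreement under these alternatives was largely fixed in advance. The values that changed follow, and the cause was not tested. With normexp correction calls were lost for FOXO1 in premature (0.85) and KLF2 in adult arteries (1.72), for KLF4 adult minus premature (1.78), KLF2 newborn minus near-term (-1.03) and FOXO1 untreated newborn minus premature (0.61), and for the dimmer probe in premature (0.08) and newborn arteries (1.20). Directions reversed there, none of them called, for newborn minus premature in KLF4 (-0.01) and KLF2 (0.36), for adult minus near-term in FOXO1 (0.39) and KLF2 (0.25), and for the untreated differences of FOXO1 adult minus near-term (-0.17) and KLF2 newborn minus premature (-0.49). Probes altered by PHE went from 1863 to 1232 in premature and from 1165 to 675 in newborn arteries. The share of calls that were higher went from 48.9% to 17.8% in near-term and from 52.3% to 62.4% in newborn arteries, and the near-term median from -0.08 to -0.42. Quantile normalization reversed FOXO1 adult minus premature (-0.06), lost KLF4 adult minus premature (1.68) and called KLF2 near-term minus premature (4.17). Scaling to the median reversed KLF4 newborn minus near-term (0.07), called FOXO1 untreated adult minus near-term (1.16) and altered 725 newborn probes, 69.5% of them higher against 52.3%. For untreated adult minus near-term arteries, 47.4% of calls were higher, against 26.1% with normexp correction, 66.6% with quantile normalization and 77% with scaling to the median, and the median of all probes went from -0.01 to -0.43, 0.28 and 0.53. A fit to only the arrays compared called FOXO1 in newborn (0.75) and KLF2 in premature arteries (1.46) and lost FOXO1 (1.57) and KLF2 (3.32) in adult arteries and KLF4 adult minus near-term (2.08). It altered 3094 probes in premature, 335 in near-term (3636 before), 1948 in newborn and 192 in adult arteries (404 before), with 88.4% of near-term calls higher. Probes called for newborn minus near-term numbered 1297, against 3643 with normexp correction, 658 with scaling to the median and 338 in this fit. For adult minus near-term they numbered 1270, against 2620, 554 and 0. With normexp correction 86.5% and 85.1% of these calls were higher, against 36.4% and 43.6%. The replicate number as a block called FOXO1 newborn minus near-term (-1.22) and changed no other call of the 3 genes. With slide as a block, where near-term responses rest on 1 untreated array, KLF2 newborn minus near-term was not called (-3.27), and KLF4 near-term minus premature (-0.26), KLF4 newborn minus near-term (0.39) and KLF2 adult minus near-term (0.69) reversed without a call. The methods' t-test without adjustment called FOXO1 in newborn (0.75) and KLF2 in premature arteries (1.46) but not KLF2 in adult arteries (3.32), and altered 2972, 1933, 1959 and 656 probes in premature, near-term, newborn and adult arteries. With adjustment it called KLF2 in premature arteries (1.46) and none of FOXO1 (1.96 and 1.57), KLF4 (2.35 and 4.43) and KLF2 (4.43 and 3.32) in near-term and adult arteries, where it altered 18 and 9 probes. With 1 array left out, results of which any call or direction changed ran from 2.26 to 4.31 (KLF2, adult PHE), 1.97 to 2.65 (KLF4 adult minus premature), 1.88 to 2.53 (KLF4 adult minus newborn), -1.57 to -0.99 (FOXO1 newborn minus near-term) and 1.02 to 1.24 (FOXO1 untreated newborn minus premature). Uncalled differences that crossed 0 ran from -0.11 to 0.56 (FOXO1 adult minus premature), -0.11 to 0.38 (KLF4 near-term minus premature), -0.27 to 0.19 (KLF4 newborn minus near-term), -0.18 to 0.38 (KLF4 newborn minus premature) and -0.38 to 0.17 (KLF4 untreated newborn minus premature). Adult probes altered ran from 267 without adult PHE replicate 1 to 618 without adult PHE replicate 2. The replicate block could not be run between untreated ages, nor the slide block between newborn and premature arteries.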
